A study of Mus musculus with 18 samples.

Results

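The regions described here are stretches of hippocampal mRNA at 6 months of age. They were captured with an antibody to ac4C (N4-acetylcytidine, a cytidine carrying an acetyl group). In each of them a peak was listed for every 5×FAD mouse and for no wild-type (WT) mouse. The regions are called 5×FAD-only regions below. Merging the peaks of the 6 mice, with 1 bp of strand-matched overlap enough to join them, gave 20038 regions, and a region was kept when all 3 5×FAD tables and none of the 3 WT tables listed a peak in it. The rule took 238 of the 20038 regions (1.19%), on 225 mRNAs. The regions were thus chosen by the presence of a listed peak in each mouse, so their difference between genotypes is a description of the choice, and no test of it is given as a result.

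The series profiled whole hippocampi of 3 WT and 3 5×FAD mice by acetylated RNA immunoprecipitation sequencing (acRIP-seq), with an anti-ac4C, an input and an IgG library for each mouse, 18 libraries in all. The 5×FAD line overexpresses human APP with the Swedish, Florida and London mutations under the murine Thy-1 promoter, which is active in neurons. WT mice carry no transgene. For mice of this age the sources used here give no sex. The deposited values are the fold enrichment of a peak, which is captured signal over input, and its score, which rises with the negative logarithm of the peak caller's p-value. In the methods, IgG signal was subtracted before division by input, but whether the listed values include this step could not be checked.

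In mRNA, ac4C is placed by the acetyltransferase Nat10 and has been tied to mRNA stability and to translation. Amyloid deposits in the brain draw in microglia, the resident macrophages, which take up debris through phagocytic receptors and switch on a set of genes for lysosomes, lipid handling and antigen display known as the disease-associated microglia program. A homogenate of hippocampus mixes the mRNAs of neurons, glia and vessels. In such bulk samples, more cells of a type and more of an mRNA or of its acetylation per cell cannot be told apart.

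The sequences of 7 of the regions are given first, because they lie on microglia and myeloid mRNAs described below and show where cytosine-rich stretches lie. Each is a wholly coding region, read from the GRCm38 reference genome (build mm10) on the transcribed strand, and capitals mark every match to CNNCNNCNNCNN, a repeat of cytosines with any 2 bases between them that has been reported near ac4C.
Gpnmb (chr6:49051818-49052026, + strand): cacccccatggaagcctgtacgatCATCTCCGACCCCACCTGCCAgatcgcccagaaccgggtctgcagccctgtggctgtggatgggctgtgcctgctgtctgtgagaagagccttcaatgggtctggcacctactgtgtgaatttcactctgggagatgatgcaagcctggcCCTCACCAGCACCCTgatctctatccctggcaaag
Laptm5 (chr4:130929420-130929542, + strand): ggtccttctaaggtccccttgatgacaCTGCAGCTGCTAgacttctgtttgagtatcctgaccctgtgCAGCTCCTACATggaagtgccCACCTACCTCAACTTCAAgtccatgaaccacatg
Lcp2 (chr11:34070970-34071168, + strand): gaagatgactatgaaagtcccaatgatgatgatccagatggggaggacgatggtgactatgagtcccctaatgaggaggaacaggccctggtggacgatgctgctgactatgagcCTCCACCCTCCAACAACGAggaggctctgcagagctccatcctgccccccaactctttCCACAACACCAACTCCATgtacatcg
Lcp2 (chr11:34075216-34075299, + strand): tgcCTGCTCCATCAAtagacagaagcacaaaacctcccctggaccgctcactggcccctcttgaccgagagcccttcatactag
Lcp2 (chr11:34078508-34078615, + strand): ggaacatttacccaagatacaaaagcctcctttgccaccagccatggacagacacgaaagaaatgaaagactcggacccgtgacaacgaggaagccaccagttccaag
Ptpn6 (chr6:124728781-124728970, - strand): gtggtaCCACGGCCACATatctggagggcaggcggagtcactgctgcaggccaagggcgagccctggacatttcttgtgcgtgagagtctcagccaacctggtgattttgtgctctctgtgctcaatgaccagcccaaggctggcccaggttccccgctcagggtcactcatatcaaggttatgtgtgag
Inpp5d (chr1:87701160-87701268, + strand): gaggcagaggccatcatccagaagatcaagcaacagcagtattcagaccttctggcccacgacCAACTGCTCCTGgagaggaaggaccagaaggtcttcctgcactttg
The middle Lcp2 region had the highest cytosine content of the 3 on that mRNA, 38.1% beside 29.1% and 28.7%, and the last of them held no match.

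Regions found in every 5×FAD mouse numbered 2858, and most of them were shared with WT mice. No WT mouse had a peak in 238 of them (8.33%), 1 WT mouse in 345, 2 in 545 and all 3 in 1730. The mirrored set, listed for all WT mice and for no 5×FAD mouse, held 47 regions (0.235% of all). The 5×FAD-only set was thus 5.06 times as large as its mirror.

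**Figure D1:**
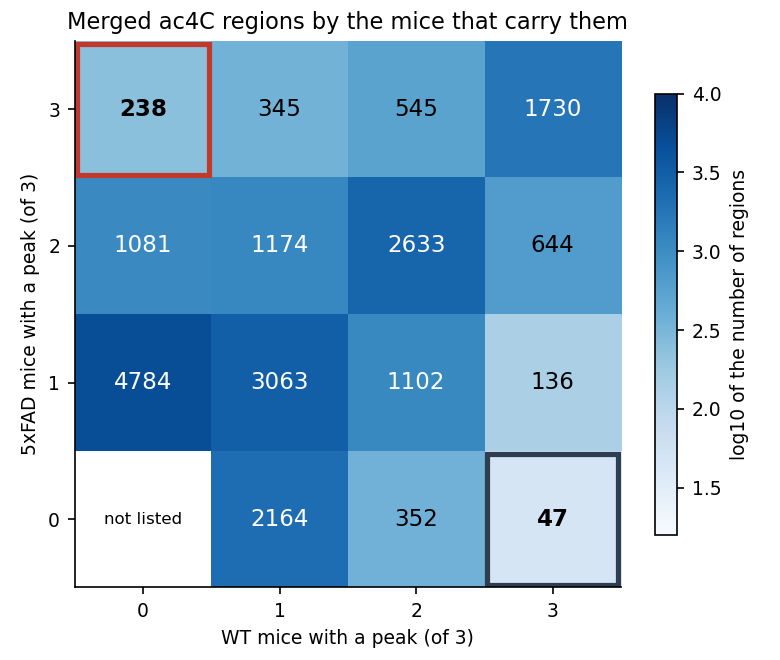
Number of merged ac4C regions by how many WT mice (x axis) and how many 5×FAD mice (y axis) had a peak in them, coloured by the log10 of the number. The red frame marks the 238 5×FAD-only regions, and the dark frame the 47 regions of the mirrored set.

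The 5×FAD tables were longer, and the ratio fell when the lengths were made equal. WT mice had 8375, 7904 and 7434 listed peaks and 5×FAD mice 10234, 10088 and 8459. When each mouse was limited to its 7434 peaks with the highest scores, 105 regions were found in every 5×FAD mouse alone and 83 in every WT mouse alone, a ratio of 1.27. Of the 238 regions, 93 overlapped a region of that shorter list. The 5×FAD-only regions are therefore described below as a set of listed peaks, and their number is not read as a gain of acetylation sites.

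Most of the 238 regions were weakly enriched. Their median fold enrichment was 6.32 in 5×FAD mouse 1, 6.30 in mouse 2 and 11 in mouse 3, and the lowest values were 3.08, 2.71 and 5.98. Values of mouse 3 were higher in its table as a whole, with a median over all its peaks of 13.05 beside 7.63 and 7.44 in mice 1 and 2. Mouse 3 was the highest of the 5×FAD mice for 216 of the 238 regions. With each mouse multiplied by 1 factor, so that regions found in all 6 mice had the same median (a common scale), it was the highest for 137, and the medians were 5.89, 6.34 and 7.22. Mice 1 and 2 lay within 1.5-fold of each other for 211 regions. Across the 238 regions Spearman's correlation was 0.75 between mice 1 and 2 and 0.40 between either and mouse 3. This is a description across regions, which are not independent replicates.

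The geometric mean over the 3 mice was under 10 for 189 regions (79.4%) and at least 20 for 7. The lowest score among the 5×FAD mice, which shows the weakest call of a region, had a median of 56.8, beside 79.0 for regions also found in 1 or 2 WT mice and 181 for regions found in all 6. It was under 50 for 86 of the 238 regions (36.1%), against 16.5% and 6.24% in those classes, where 40 is the lowest score listed. A score of at least 100 in every 5×FAD mouse was reached by 51 regions (21.4%). The listed false discovery rate does not set the regions apart, since it was under 5% for at most 2 peaks of any mouse, none of them in the 238 regions. How this column relates to the threshold in the methods is not known.

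Below 15, part of the fold enrichments fell on whole multiples of a step that differed between mice, 0.243, 0.235 and 0.261 in 5×FAD mice 1 to 3 and 0.168, 0.158 and 0.157 in WT mice 1 to 3. Of the peaks below 15 in 5×FAD-only regions, 44.8% lay within 0.007 of such a multiple in mouse 1, 41.7% in mouse 2 and 44.6% in mouse 3. For peaks below 15 in regions found in all 6 mice the shares were 35.5%, 32.6% and 18.3%, and evenly spread values would give 5.76%, 5.97% and 5.36%. Peaks of the 5×FAD-only regions on a multiple stood at a median of 27, 29 and 39 steps. What 1 step stands for was not tested. The weakest listed WT peaks, those with a score under 50, had median fold enrichments of 4.54, 4.65 and 4.64, close to the lower values of the 5×FAD-only regions. A region without a WT peak may therefore have had a WT signal below the limit of listing.

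**Figure D2:**
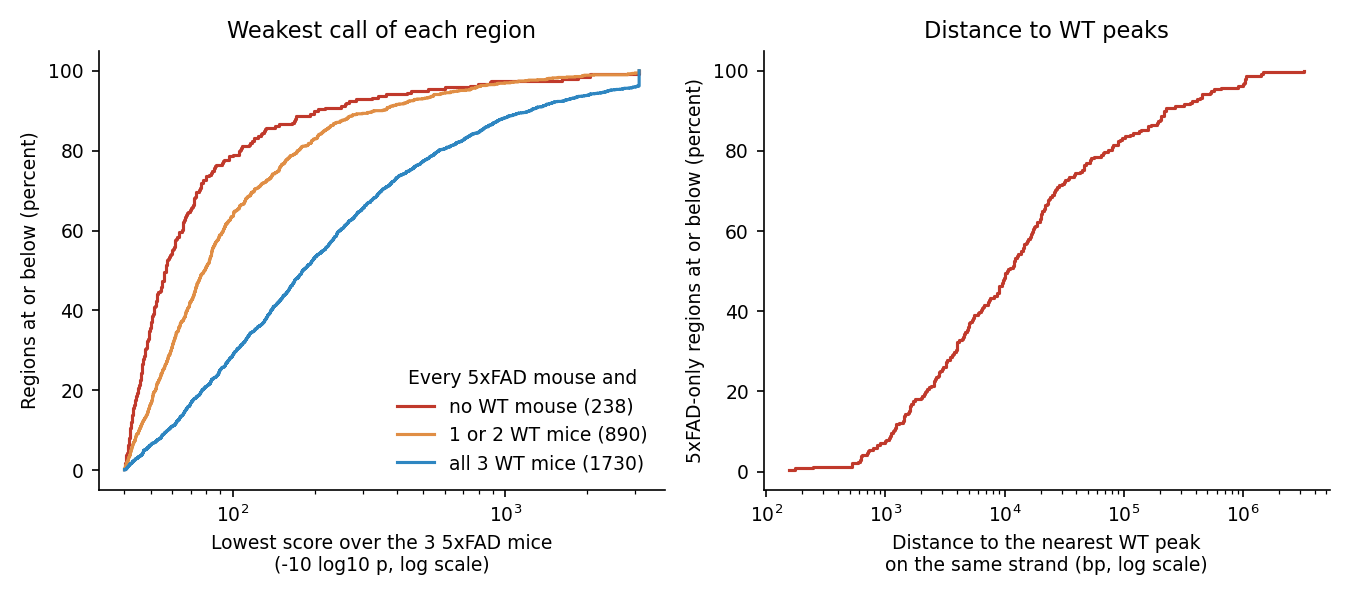
Left, share of regions (y axis) whose lowest score over the 3 5×FAD mice is at or below the value on the logarithmic x axis, for regions in every 5×FAD mouse that were found in no, in 1 or 2, or in all 3 WT mice. The red line of the 238 regions lies to the left, with a median of 56.8. Right, share of the 238 regions within a given distance (bp, logarithmic) of a WT peak on the same strand, with a median of 10552 bp.

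Myrf, the transcription factor that oligodendrocytes need to make myelin, carried one of the strongest regions, with 52.25, 53.96 and 56.61 in mice 1, 2 and 3 (chr19:10226018-10226912). The 3 mice were close to each other. The region overlapped no exon of the 3 coding transcripts annotated for Myrf. Its place among the 5×FAD-only regions rests on where a peak was listed. At a distance of 1367 bp, in another exon, every WT mouse had a Myrf peak that no 5×FAD mouse had, with 46.55, 42.24 and 33.43. On the other side, 708 bp away, a region was listed in all 6 mice, with WT values of 31.26, 29.74 and 23.70 and 5×FAD values of 47.88, 39.88 and 75.18. The caller numbers its peaks along the genome, and in all 3 WT mice these numbers ran on without a gap from one of the neighbours to the other. Myrf was the single 5×FAD-only region for which this held in every WT mouse. Listed peaks were 10.9%, 10.9% and 11.8% of the highest caller number in WT mice 1 to 3, and 9.66%, 9.81% and 10.3% in 5×FAD mice. Between the listed WT peaks on either side of a 5×FAD-only region, a median of 9, 9 and 8 numbers were unlisted in WT mice 1 to 3. Where those unlisted peaks lay is not known.

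Dnm2, the dynamin that pinches off endocytic vesicles in most tissues, showed a similar exchange between exons. Its 5×FAD-only region in exon 19 of 20 had 35.10, 36.68 and 40.02 in mice 1 to 3. At a distance of 618 bp, its stop codon exon had WT values of 29.50, 24 and 17.42 above 5×FAD values of 5.94, 4.96 and 9.71, with no overlap between the genotypes. The fold enrichment summed over all regions of Dnm2 was 56.47, 39.57 and 52.89 in WT and 73.43, 74.72 and 140.12 in 5×FAD.

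The region of 1700030K09Rik had 31.84, 29.21 and 48.60 and overlapped the stop codon exon of Cherp, a gene on the other strand. WT mice had a peak listed there, under Cherp, with 11.49, 11.41 and 18.04, and no 5×FAD mouse did. It was the single 5×FAD-only region that a WT peak overlapped on the other strand, and it was lost when strand was ignored.

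Among the other strong regions, Rbfox3, which encodes the neuronal splicing factor NeuN, had 18.60, 15.82 and 61.57. Sos1, a Ras activator, had 14.24, 15.52 and 37.08 at its stop codon, and a coding region 1069 bp away was listed in all 6 mice, with WT values of 9.78, 11.67 and 10.21 beside 14.23, 14.01 and 55.86 in 5×FAD. Brd2, a chromatin reader, had 21.05, 8.18 and 43.63, and Macf1, a linker of actin and microtubules, 11.48, 11.86 and 48.79. In these 4 mRNAs mouse 3 was at least 1.5-fold above both other mice. Bin2 and Cd68, also among the 10 strongest, belong to microglia and are described next. A pair of regions had high scores at modest enrichment: the stop codon exons of Cx3cl1, the neuronal ligand of the microglia receptor Cx3cr1, with 8.67, 7.59 and 9.38, and of Pip5k1c, a kinase that makes a membrane phosphoinositide, with 9.01, 8.20 and 18.76. Their lowest scores were 3100 and 2039.

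**Figure D3:**
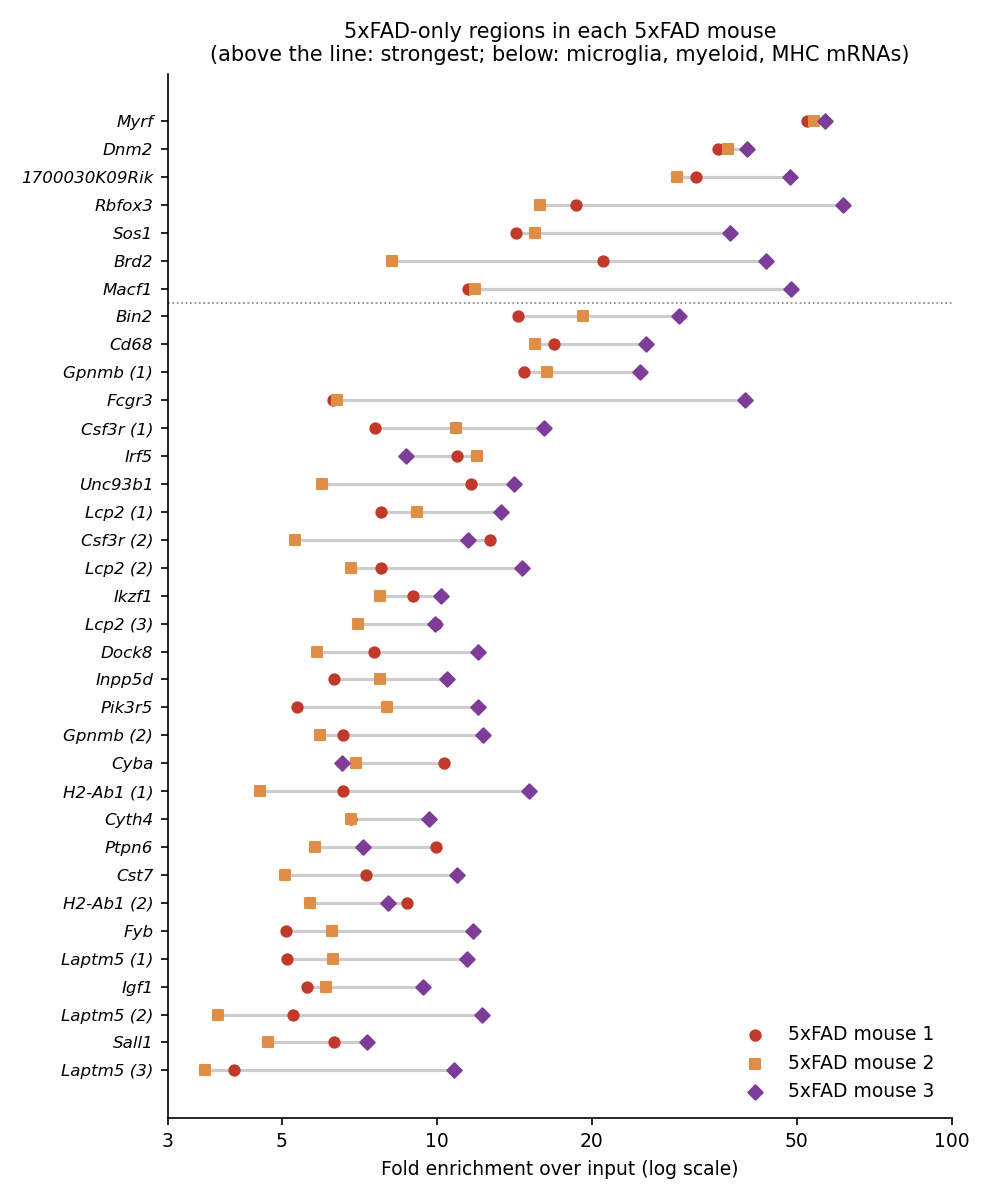
Fold enrichment over input (logarithmic x axis) in each of the 3 5×FAD mice for 7 of the 10 strongest 5×FAD-only regions, above the dotted line, and below it for regions on microglia, myeloid and MHC mRNAs. A number in brackets tells apart regions of the same mRNA, in falling order of the geometric mean. WT mice have no value because no peak was listed. Most rows of the lower part lie between 4 and 15, and mouse 3 is most often the highest.

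Microglia and myeloid mRNAs carried 29 of the 238 regions. Over 3 lists (homeostatic microglia, disease-associated microglia and myeloid receptor signalling) and the list of complement and antigen presentation, these 29 lay on 22 mRNAs. The lists were put together with earlier results of these data known, so the counts describe the set and are no test of it. For all mRNAs, 238 of the 2858 regions found in every 5×FAD mouse were 5×FAD-only (8.33%).

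For myeloid receptor signalling, the kinases, phosphatases, adaptors and receptors that act downstream of immune receptors in macrophages and their kin, 17 of 20 regions found in every 5×FAD mouse were 5×FAD-only (85%), on 14 mRNAs. Lcp2, the adaptor SLP-76, carried 3 such regions in exons 7, 10 and 13 of 21. They had 7.78, 9.15 and 13.31, then 7.78, 6.80 and 14.62, then 9.96, 7.04 and 9.92 in mice 1 to 3, and no WT mouse had a peak anywhere on Lcp2. Csf3r, the receptor of a granulocyte growth factor, carried 2 regions, with 7.58, 10.88 and 16.13 at the stop codon and 12.69, 5.29 and 11.51 in exon 13 of 17, again with no WT peak on the mRNA. Fcgr3, an activating receptor for the constant part of antibodies, had 6.27, 6.39 and 39.68. Bin2, a membrane-bending protein of phagocytes, had 14.34, 19.24 and 29.50 at its stop codon. Its other region, listed in all 6 mice, had WT values of 5.55, 6.33 and 4.08 below 5×FAD values of 9.42, 7.92 and 7.51 as deposited. On the common scale, which multiplies 5×FAD mouse 3 by 0.6579, the genotypes overlapped there.

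The remaining myeloid regions lay on signalling enzymes, adaptors and transcription factors. The phosphatase Ptpn6 (SHP-1), which damps immune receptor signals, had 9.96, 5.79 and 7.17, and the lipid phosphatase Inpp5d (SHIP1), a risk gene of Alzheimer disease, 6.32, 7.74 and 10.45. Fyb, an adaptor that binds SLP-76, had 5.10, 6.26 and 11.75. Its start codon region was listed in all 6 mice, the WT values being 5.88, 5.70 and 4.87 and the 5×FAD values 25.81, 14.72 and 22.06, so that the genotypes did not overlap. The transcription factors Irf5 (10.94, 11.96 and 8.71) and Ikzf1 (8.99, 7.74 and 10.18) carried their regions at the stop codon. Cyba, a subunit of the phagocyte oxidase, had 10.31, 6.95 and 6.53, and Unc93b1, a chaperone of endosomal Toll-like receptors, 11.67, 5.99 and 14.09. Dock8, Cyth4 and Pik3r5, regulators of small GTPases and of a phosphoinositide kinase, had values between 5.35 and 12.01.

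The other regions on the whole myeloid list, also those of its genes without a 5×FAD-only region, were not used by the rule. The list itself was put together with earlier results of these data known, so these counts too are a description. Of 49, 43 (87.8%) were found in more 5×FAD than WT mice, 2 (4.08%) in more WT mice and 4 in equal numbers. For all mRNAs these shares were 40% and 22.4% of 19800 regions. For the related lists they were 60% and 0% of 15 regions for homeostatic microglia, 45.2% and 16.1% of 31 for the disease-associated program, and 47.1% and 35.3% of 17 for complement and antigen presentation. No WT peak was listed in 40 of the 49 myeloid regions, against 5865 of the 19800. Regions without a WT peak were listed through 5×FAD peaks alone, which sets their direction. Of the 53 genes on the myeloid list, 30 had a region in any mouse and 6 a WT peak. It had 7, 8 and 4 WT peaks against 46, 46 and 34 5×FAD peaks, and without the 5×FAD-only regions 29, 29 and 17 in the latter. Its summed fold enrichment without those regions, as deposited, was 24.8 to 41.8 in WT and 216.2 to 253.3 in 5×FAD. Over all mRNAs the listed peaks numbered 8375, 7904 and 7434 in WT and 10234, 10088 and 8459 in 5×FAD.

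Homeostatic microglia genes, which microglia express in healthy brain, had 5 of 8 regions in the set. Among them were 3 regions on Laptm5, a lysosomal membrane protein of blood and microglia cells, and 1 on Sall1, a transcription factor that keeps microglia identity. The Laptm5 regions had 5.26, 3.75 and 12.23 at the start codon, 5.12, 6.29 and 11.43 in exon 4 and 4.04, 3.54 and 10.79 in exon 5 of 8. Laptm5 was not silent in WT mice: a coding region had 4.87 in WT mouse 1, and the stop codon region 13.73 and 9.05 in WT mice 2 and 3. Sall1 had 6.32, 4.69 and 7.31, and another of its coding regions was listed in 2 mice of each genotype, with WT values of 11.08 and 9.62 and 5×FAD values of 16.76 and 12.82. Of the defining markers of the type, Cx3cr1, P2ry12 and Csf1r had WT peaks, Tmem119 had peaks in 2 5×FAD mice alone, and Aif1 had no region in any mouse.

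Genes of the disease-associated program had 5 of 10 regions in the set. Cd68, a lysosomal glycoprotein of phagocytes, had 16.85, 15.51 and 25.45 at its start codon, with a lowest score of 2055. Gpnmb, a transmembrane glycoprotein that rises in microglia at plaques, had 14.74, 16.36 and 24.79 in exon 6 and 6.56, 5.93 and 12.27 in exon 9 of 11. Cst7, a cysteine protease inhibitor, had 7.29, 5.06 and 10.96, and the growth factor Igf1 5.59, 6.10 and 9.40. No WT mouse had a peak anywhere on these 4 mRNAs. The program was nonetheless listed in WT mice: Axl, a receptor for dying cells, Ctsb, a lysosomal protease, and Hif1a, a transcription factor, each had a region found in all 6 mice, for Axl with WT values of 8.91, 7.91 and 7.85 and 5×FAD values of 13.02, 17.25 and 10.36. The program's markers Trem2, Tyrobp, Apoe and Spp1 had no region in any mouse.

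H2-Ab1, the beta chain of a class II MHC molecule, carried both regions of the complement and antigen presentation list, with 6.56, 4.54 and 15.12 at the stop codon and 8.75, 5.68 and 8.04 at the start codon. Of the 29 regions on these 4 lists, 22 (75.9%) lay on mRNAs with no WT peak at all, and mouse 3 was the highest for 22. For all 238 regions 68 (28.6%) lay on such mRNAs.

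The counts shrank with stricter lists of peaks. With scores of at least 50 the myeloid list had 10 of 12 regions in the set, against 200 of 2517 (7.95%) for all mRNAs. With equal numbers of peaks per mouse it had 6 of 8, against 105 of 2169 (4.84%), while the disease-associated list went from 5 of 10 to 2 of 7 (28.6%) and the homeostatic list from 5 of 8 to 2 of 3. Leaving out any single mouse gave 17 to 28 myeloid regions. The highest count, 28 of 33, came without 5×FAD mouse 3, where all mRNAs had 760 of 5553 (13.7%). In none of these settings did the mirrored WT set hold a region of the myeloid list. As deposited, however, that list had only 4 regions found in every WT mouse, too few to read this count. Over all mRNAs 47 of 2557 such regions were in the mirrored set.

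The lists of other cells were as follows. The 10 genes that mark infiltrating blood cells, among them Cd3e, Ms4a1, S100a8 and Ly6c2, had no region in any mouse. Astrocyte genes had 0 of 4 regions in the set, and their peaks numbered 9, 8 and 15 in WT and 12, 12 and 11 in 5×FAD. Their summed fold enrichment was 93.6 to 151.2 in WT and 158.3 to 262.0 in 5×FAD. Oligodendrocyte genes had 1 of 3, which was Myrf, and endothelial genes 1 of 4, which was the VEGF receptor Flt1 with 7.71, 7.98 and 11.42. Endothelial and pericyte genes also had more peaks in 5×FAD mice. Without the Flt1 region these numbered 6, 9 and 4 in WT against 10, 13 and 10 in 5×FAD, with a summed fold enrichment of 30.1 to 75.4 against 88.9 to 169.5, and 12 of their 19 other regions (63.2%) were found in more 5×FAD mice and 2 (10.5%) in more WT mice. Neuronal lists, also without their 5×FAD-only regions, went the same way. The list of glutamate receptors and the postsynaptic density had 54, 53 and 45 WT peaks and 63, 65 and 59 5×FAD peaks. Its sums were 551.8 to 730.3 in WT and 952.0 to 1200.8 in 5×FAD, and the presynaptic sums 566.4 to 814.3 and 890.0 to 1861.2. Those of oligodendrocyte genes overlapped, at 189.3 to 224.0 and 185.1 to 217.6. All these sums are as deposited. The common scale multiplies WT mice by 1.136, 1.188 and 1.446 and 5×FAD mice by 0.9321, 1.006 and 0.6579. On it the endothelial, astrocyte, glutamate and presynaptic sums of the genotypes overlapped. How far cell numbers account for the microglia and endothelial counts was not tested, since the tables hold no expression levels.

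**Figure D4:**
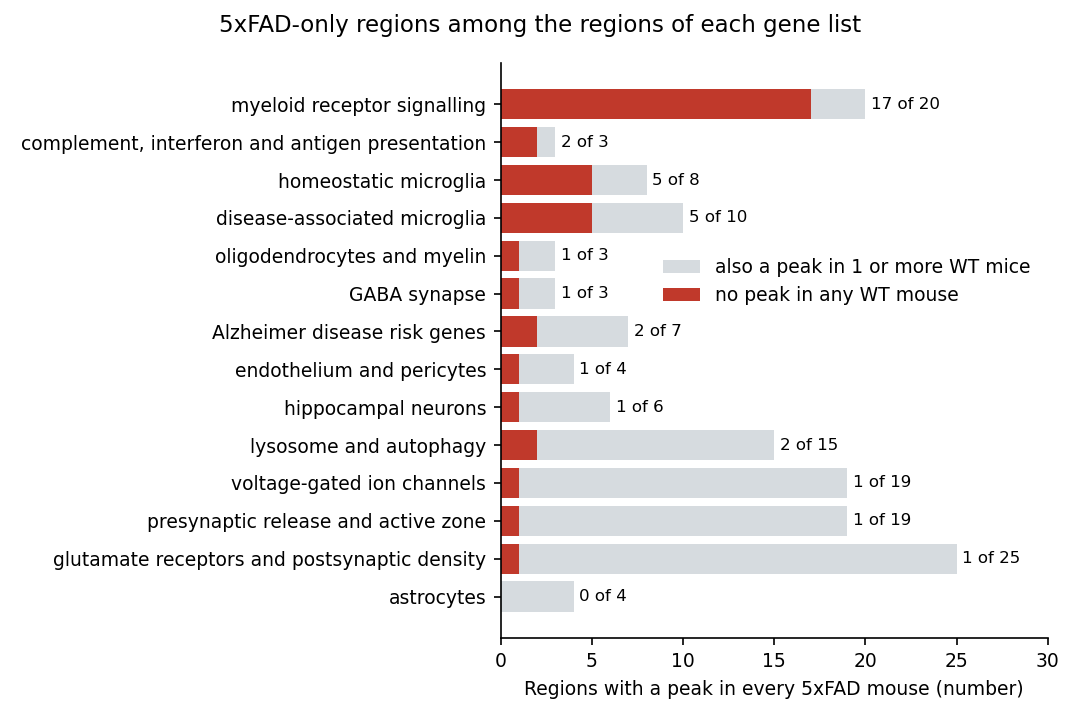
Number of regions found in every 5×FAD mouse (full bar, x axis) on the mRNAs of each gene list with at least 3 of them, and how many of these had no WT peak (red). Myeloid receptor signalling stands at 17 of 20. The glutamate synapse stands at 1 of 25, a count too small to set against the 8.33% over all mRNAs.

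The counts of synaptic lists were too small to set against the 8.33% over all mRNAs. Glutamate receptors and the postsynaptic density had 1 of 25 regions (4%), and 2 of 22 (9.09%) with scores of at least 50. The region in the set lay in Iqsec1, a guanyl-nucleotide exchange factor of spines (9.23, 9.17 and 16.88). The presynaptic list had 1 of 19, in the active zone protein Rims1 (3.89, 3.73 and 10.83), and ion channels 1 of 19, in the potassium channel Kcnq5 (4.90, 4.54 and 9.40). GABA synapses had 1 of 3, in the receptor subunit Gabra5 (4.99, 4.07 and 14.09). The dendritic protein Map2 had 10.62, 9.20 and 26.44 in its exon 11 of 14, and 1 other region of Map2 was found in all 6 mice. Lysosome and autophagy genes had 2 of 15, in Mtor (5.43, 6.63 and 9.04) and in its partner Rptor (6.76, 5.74 and 10.98), and both mRNAs had other regions in all 6 mice.

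Of the other genes looked up by name, App had 8 regions and none of them was 5×FAD-only, Thy1 had 1 region, in WT mouse 2, and Nat10 had none.

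The number of mRNAs with more than 1 of the regions was 11. Besides Lcp2, Laptm5, Csf3r, H2-Ab1 and Gpnmb these were Pcbp3, an RNA-binding protein, Pcnx, R3hdm1, Lrp5, a Wnt co-receptor, Nkain1, a partner of the sodium pump, and Mlxipl, a glucose-sensing transcription factor. R3hdm1 had 8.71, 8.48 and 34.45 in one region and 5.11, 2.71 and 35.76 in the other. Summed over all its regions, R3hdm1 had 34.92, 33.92 and 31.92 in WT and 68.16, 49.88 and 402.03 in 5×FAD, so mouse 3 stood apart on this mRNA as a whole. The regions of Mlxipl had 8.75, 8.45 and 14.62 and 7.53, 8.68 and 10.96, and those of Lrp5 7.29, 5.40 and 8.61 and 6.08, 5.86 and 8.09.

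At the other end stood mRNAs that were acetylated at many places in both genotypes and carried 1 5×FAD-only region. Phc2, a Polycomb protein, had 6 regions found in all 6 mice and Sdk2, an adhesion molecule of synapses, had 5, while Lpp, Map7d2 and Mtor had 3 each. The 5×FAD-only region of Phc2 had 13.24, 11.63 and 13.39, that of Sdk2 6.32, 7.27 and 7.83, that of Lpp 9.96, 7.27 and 8.13 and that of Map7d2 3.17, 3.03 and 8.17. The 172 regions outside the rule for naming had geometric means between 4.38 and 18.7, with a median of 7.58.

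By position the set was close to other regions found in every 5×FAD mouse. Coding sequence held 127 of the 238 (53.4%), against 52.5% of all 2858 regions in every 5×FAD mouse. The stop codon exon held 55 (23.1%, Wilson 95% interval 18.2% to 28.9%, for counting error), against 19.1%, which lies within that interval. The start codon exon held 33 (13.9%) against 18%, the 5′ untranslated region 14 (5.88%) and the 3′ untranslated region 9 (3.78%). Of 168 regions on genes with several coding transcripts, 123 (73.2%) were exonic in all of them, against 69.7% for regions in every 5×FAD mouse. Of 228 regions on annotated genes, 6 overlapped no exon of a coding transcript, among them those of Myrf, Rbfox3 and L1cam. For all regions in every 5×FAD mouse the count was 49 of 2770. The regions lay on 20 chromosomes, 27 of them (11.3%) on chromosome 11, which held 8.01% of all regions.

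Their sequence composition was close to that of weakly shared regions and below that of regions found in all 6 mice. The median cytosine content was 29.4%, against 29.3% for regions found in every 5×FAD mouse and in 1 or 2 WT mice, 31.7% in all 6 mice and 28.4% over all regions. Within the central 100 bp, 113 of 209 regions long enough (54.1%) held the motif CNNCNNCNNCNN on the transcribed strand and 32.5% held it on the other strand. In regions found in all 6 mice the shares were 62.6% and 42%, and over all regions 51.3% and 45.2%. The median length was 220 bp, against 276 bp for regions found in all 6 mice. Positions are known only to the exon, so these lengths, contents and centres are those of listed exons and not of the peaks within them.

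Around the regions, WT peaks were often near. Of the 225 mRNAs, 162 had a WT peak elsewhere, 70 had a region found in all 6 mice, and 40 had no other region at all. The nearest WT peak on the same strand was a median of 10552 bp away, within 1000 bp for 18 regions (7.56%) and within 10000 bp for 115 (48.3%). For regions of 2 5×FAD mice without a WT peak the shares were 7.59% and 48.1%.

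No peak of the caller appeared under more than 1 exon, and 7 of the regions (2.94%) had within 3000 bp a region of 2 or 3 WT mice without a 5×FAD peak. The share was 1.2% for regions of 2 5×FAD mice without a WT peak and 0.867% for regions found in all 6 mice. These 7 lay on Myrf and 1700030K09Rik, described above, and on Brd2, Mprip, Ppp1r27, Aprt and L1cam, of which Mprip, Ppp1r27, Aprt and L1cam were named after their values were seen. L1cam, a neuronal adhesion molecule, had 10.21, 14.80 and 23.91 in 5×FAD mice, and 156 bp away its start codon exon had 11.28, 12.02 and 8.17 in the WT group. Aprt, an enzyme of adenine salvage, had 11.49, 19.71 and 28.69, and 522 bp away its stop codon exon had 10.54, 11.92 and 13.81 in WT mice. On L1cam and Aprt both genotypes thus had a peak, under different exons.

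The other regions of the 225 mRNAs were then compared between genotypes, since the rule did not use them. Among 9789 regions found in 2 or more mice of a genotype, the 5×FAD-only ones left out, limma called none (0%) at an adjusted p under 0.05, with 220 higher and 54 lower in 5×FAD at an unadjusted p under 0.05. On the mRNAs with a 5×FAD-only region, 490 such regions had a median 5×FAD minus WT difference of 0.67 in log2(fold enrichment + 1), against 0.40 for the 9299 regions of other mRNAs. Every 5×FAD mouse lay above every WT mouse for 87 of the 490 (17.8%), against 11.8% of the 9789, and below for 5 (1.02%), against 0.674%. On the common scale the medians were 0.18 and 0.01. Every 5×FAD mouse then lay above every WT mouse for 29 (5.92%), against 2.73%, and below for 17 (3.47%), against 3.63%. Limma called 46 regions (0.47%) on that scale. All 46 belonged to the mirrored WT-only set, which was still among the 9789 and is itself defined by presence and absence, so their direction is that of the sets left in and out. With both sets left out, limma called 0 of 9742 regions on either scale, and every 5×FAD mouse lay below every WT mouse for 13 of 486 regions on these mRNAs (2.67%), against 3.16% of all, on the common scale.

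**Figure D5:**
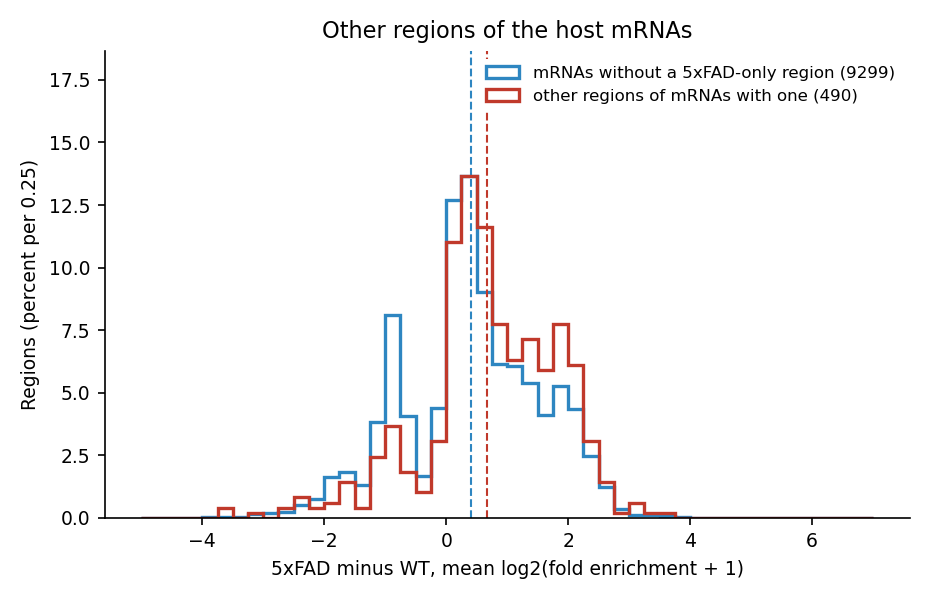
Difference between genotypes of mean log2(fold enrichment + 1), 5×FAD minus WT (x axis), for the 490 other regions of mRNAs with a 5×FAD-only region (red) and the 9299 regions of other mRNAs (blue), as percent of each group per bin (y axis). Dashed lines mark the medians of 0.67 and 0.40.

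Microglia genes were few among these other regions. For the 16 on the 3 microglia lists the median difference was 1.88. Every 5×FAD mouse was above every WT mouse for 4 as deposited and for 3 on the common scale. Of these 16, 9 had no WT peak and were tested only because 5×FAD mice had one, so their direction was set by that choice. The 474 regions on the remaining mRNAs, 56 of which had no WT peak, had a median of 0.65. Every 5×FAD mouse lay above every WT mouse for 83 of the 474 (17.5%) as deposited and for 26 (5.49%) on the common scale, and these 26 were among the 83. For regions found in all 6 mice, which had a value in every mouse, the median on the common scale was 0.06 for 112 on mRNAs with a 5×FAD-only region and -0.01 for 1618 on others, and 15 (13.4%) and 104 (6.43%) had every 5×FAD mouse above every WT mouse.

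In the terms that the tables attach to each mRNA, the following were more frequent than among comparable mRNAs. Focal adhesion was given for 17 of the 225 mRNAs (7.56%), against 3.35% of the 2000 mRNAs with a region in every 5×FAD mouse. The external side of the plasma membrane was given for 9 (4%) against 1.35%, the lysosome for 10 (4.44%) against 2.35% and actin binding for 13 (5.78%) against 3.75%. Other terms were less frequent, among them ATP binding with 8 (3.56%) against 8.65% and nucleotide binding with 15 (6.67%) against 12.1%. These are counts over terms ranked after their values were seen, with no test.

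The regions at the edge of the rule were as follows. Just inside, Efcab14 had 3.80, 2.98 and 5.98 in the 5×FAD mice, with a lowest score of 40.1, Tctn2 had 5.10, 6.33 and 8.88 and Prrc2c 4.77, 3.60 and 19.55. Just outside, Pnrc1 had 7.14, 6.43 and 12.80 in 5×FAD and 6.75 in WT mouse 1, where the score was 40.06, and Ubap2 had 6.32, 7.98 and 8.28 and 5.38 in WT mouse 1. Regions missed in 1 5×FAD mouse included strong ones: Arf3, a small GTPase, had 45.00 and 47.32 in mice 1 and 2 and Zmiz2 had 29.69 and 24.45, with no peak in mouse 3 or in any WT mouse, and Atp1b2, a sodium pump subunit, had 14.31 and 16.53 in mice 1 and 3.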

How the data were processed

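acRIP-seq of hippocampus was analysed for 3 WT and 3 5×FAD mice. Per the labels and methods, the authors trimmed reads (cutadapt 1.9.3), aligned them to mm10 (HISAT2 2.04) and called peaks per mouse with MACS against input, dropping peaks shared with IgG. The deposited tables give, for each peak, a fold enrichment over input (a ratio), a score from the caller's p-value and a false discovery rate in percent, which the authors took from the caller. Read depth is not in these tables, and positions are known to the exon. Peaks were merged in python 3.11.15. Other regions of the same mRNAs, found in 2 or more mice of a genotype, were compared on log2(fold enrichment + 1), with pseudocount 1 and no peak as 0, by limma 3.58.1 (R 4.3.3) with Benjamini-Hochberg adjustment. Both scripts were tested on simulated data. Sequences came from the GRCm38 reference genome. Members and gene lists were chosen with earlier results of these data known. Named regions were the strongest, the highest scoring, those of mRNAs with several, of listed genes, at the edge of the rule, on mRNAs with most regions in all 6 mice, or tied to the transgenes. Alternatives are given in the closing section. Same-numbered mice deviated together (correlations of 0.595, 0.562 and 0.356), so the numbers pair the mice; the sources used here do not say where the pairing comes from. P-values measure the spread between these 6 mice. Results for some items are not reported here.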

Additional observations from a re-analysis of the deposited data

How the results depend on the processing

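With equal numbers of peaks per mouse, 105 regions were 5×FAD-only and 83 WT-only, 30 lay on mRNAs with no WT peak and 6 on myeloid receptor signalling. With scores of at least 50 the myeloid count was 10 and the median cytosine content 28.9%; with the highest peak of each region alone that content was 29.6%. With scores of at least 100 in the own genotype, a limit chosen after seeing the data like the myeloid alternatives and joining within 1000 bp, 51 and 11 regions were left. Leaving out 1 mouse gave 292 to 760 5×FAD-only regions, 68 to 180 WT-only regions, 85 to 210 on mRNAs with no WT peak, 17 to 28 myeloid regions and a cytosine content of 27.7% to 29.4%; the highest counts of 5×FAD-only regions came without 5×FAD mouse 3. The median difference of the other regions on these mRNAs (0.67) was 0.18 on the common scale and 0.15 after quantile normalization, and 0.43 to 0.88 without 1 mouse, 0.43 without 5×FAD mouse 3. Over all 10027 regions tested, the 5×FAD-only ones included, limma called 0 at an adjusted p under 0.05 (458 higher, 54 lower before adjustment), 284 with a pseudocount of 0.1, 227 on the common scale, and 0 to 830 without 1 mouse, 830 without 5×FAD mouse 3. These calls are no test of the 5×FAD-only regions, whose peaks chose them: with the pseudocount of 0.1, 237 calls were higher and 47 lower, and 0 were left without the 5×FAD-only and WT-only regions, as on the common scale (181 higher, 46 lower). Without 5×FAD mouse 3, 760 calls were higher and 70 lower, where the rule gave 760 5×FAD-only and 68 WT-only regions. How many of those calls were these regions was not counted, so they are not read as differences that mouse 3 hides. The fit with the replicate block (paired mice) called 0 and kept the median at 0.67. The cause of these moves was not tested. Read depth is unknown, so a WT signal below the limit of listing cannot be told from none.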
